A study of Mus musculus with 32 samples.

Results

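Soleus muscles labelled as knocked out for both Acvr1b and Tgfbr1 in the myofibres were set against soleus muscles labelled as knocked out for 1 of the 2 genes. The comparison drew on 12 of the 32 libraries of the series and on all genes measured: 4 libraries of the genotype Acvr1b and Tgfbr1 KO (double KO in what follows), 4 of Acvr1b KO and 4 of Tgfbr1 KO. Libraries were taken by the tissue and the genotype in their labels, and the reference was the mean of the single-knockout groups with each genotype weighted equally. The knockouts were induced with tamoxifen in mice aged 6 weeks, and 3 months later the soleus, rich in slow fibres, and the fast gastrocnemius medialis were dissected from the left leg. The 4 control soleus libraries entered the estimate of the spread between libraries, the scaling and the choice of genes tested. They were not a group of the difference itself. The sources used here name neither the promoter that drove the deletion nor the alleles that the controls carry. RNA came from whole muscles, so each library also holds RNA of vessels, nerve, connective tissue and blood cells. The 4 double KO mice carry animal numbers from a different stretch than the other 12 mice, so that genotype and cohort cannot be told apart.

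Acvr1b and Tgfbr1 encode type I receptors of the TGF-beta family. A ligand such as myostatin, an activin or TGF-beta binds a type II receptor, which phosphorylates a type I receptor, and the active type I kinase passes the signal to SMAD2 and SMAD3. In muscle, myostatin and activins restrain fibre growth through this route, and both type I receptors can carry the signal. Muscle without 1 of the receptors still has the other, and the comparison asks what the loss of the second one adds.

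Over 18143 genes tested, 26 passed a Benjamini-Hochberg adjusted p of 0.05 in edgeR's quasi-likelihood test, which is 0.143% of them. Of these, 17 were higher in the double KO (0.0937% of all genes) and 9 were lower (0.0496%). The genes that rose included Sln, Pak1, Ak4, Pfkfb3, Stbd1, Sort1 and Ddit4l, and those that fell included Fkbp5, Cebpd, Tinagl1, Nr4a3 and Acvr1b itself. At an unadjusted p under 0.05 there were 2337 of the 18143 genes, and 9592 of the 18143 had a difference above 0. DESeq2 called 262 of the 18143, among them 25 of the 26. The sizes ran from 0.50 to 4.85 on the log2 scale, with 10 genes rising and 5 falling by more than 1.

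Library totals in the compared groups ran from 33102979 to 41951506 counts, and mitochondrial transcripts took 15.3% to 22% of the counts over the 16 soleus libraries. Double KO 1 stood apart from all other libraries. On the first principal component, which held 29.7% of the variance, it scored 108 while the other 15 lay between -9.99 and -3.37, and its median correlation with the other libraries was 0.945 against 0.973 to 0.989. Acvr1b KO 1 stood apart on the second component (16.5% of the variance) with a score of 58. In Acvr1b KO 1 tendon markers summed to 67.7 CPM, which are counts scaled to the library total after its adjustment by TMM, and fibroblast markers to 451 CPM, beside 536 to 719 CPM and 1127 to 1402 CPM in the other 3 libraries of its group. Its macrophage markers summed to 46.2 CPM and its endothelial markers to 1185 CPM, beside 112 to 139 CPM and 699.7 to 771 CPM. The part of these cells in the differences was not tested.

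In the labelled knockouts the targeted transcripts were read first. Acvr1b (chromosome 15, 101174067 to 101213684, GRCm38) measured 11.3, 7.42, 8.22 and 10.6 CPM in double KO 1 to 4. The Acvr1b KO libraries held 15.5, 11.9, 13.2 and 13.6 CPM, the Tgfbr1 KO libraries 26.9, 36.9, 26.1 and 28.4 CPM, and the controls 49.4, 45.1, 31.9 and 49.2 CPM. All libraries labelled with an Acvr1b deletion thus lay below all others, and the double KO lay below the Acvr1b KO without overlap. The difference from the mean of the single KOs was -1.09 on the log2 scale (SE 0.15, adjusted p = 0.0110), and most of it came from the Tgfbr1 KO side, at -1.65 (adjusted p = 0.000399) against -0.53 towards the Acvr1b KO (adjusted p = 0.287). Tgfbr1 (chromosome 4, 47353222 to 47414931) gave no such check. Its level was 57.6, 15.7, 18.1 and 18.6 CPM in the double KO, 20.6, 14.3, 13.9 and 13.8 CPM in the Tgfbr1 KO, and 10.5 to 20.7 CPM in the Acvr1b KO and control libraries. Counts over the whole gene do not resolve the deleted exons, so the Tgfbr1 label is not tested by this level. A separate reading came from the neighbourhood of Tgfbr1: 10 genes that lie 4.76 to 5.46 Mb from it were at or below 0.0588 CPM in all 8 libraries labelled with a Tgfbr1 deletion and between 0.15 and 1.36 CPM in the 8 others. These 10 were chosen after their values were seen, include near-identical copies whose reads may be shared, and show that the libraries fall apart by the label at this stretch of chromosome 4, not that Tgfbr1 was cut.

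The position of each called gene was noted, since at genes near a targeted gene the deletion and the flanking chromosome cannot be told apart. Of the 26, 4 lay within 20 Mb of Acvr1b (Acvr1b, Shisal1, Mettl7a3 and Slc4a8), 1 lay within 20 Mb of Tgfbr1 (Nr4a3), and 21 lay elsewhere. Mettl7a3, a member of a methyltransferase-like family, stood at 4.05, 3.17, 2.93 and 2.30 CPM in the double KO, 1.66 to 2.51 CPM in the Acvr1b KO and 0.485 to 0.756 CPM in the Tgfbr1 KO. It was 2.34 higher on the log2 scale than in the Tgfbr1 KO and 0.66 higher than in the Acvr1b KO, and those single KOs already differed from each other. Slc4a8, a sodium-coupled bicarbonate transporter, fell by 0.82 (adjusted p = 0.0440), with -1.44 against the Tgfbr1 KO and -0.21 against the Acvr1b KO. For both genes the pooled value averaged 2 unlike differences. Nearly all counts of Mettl7a3 were fractional, in 16 of 16 libraries, so it shares reads with other loci. Without the genes near the loci, the number called was 15, with 11 higher and 4 lower.

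**Figure D1:**
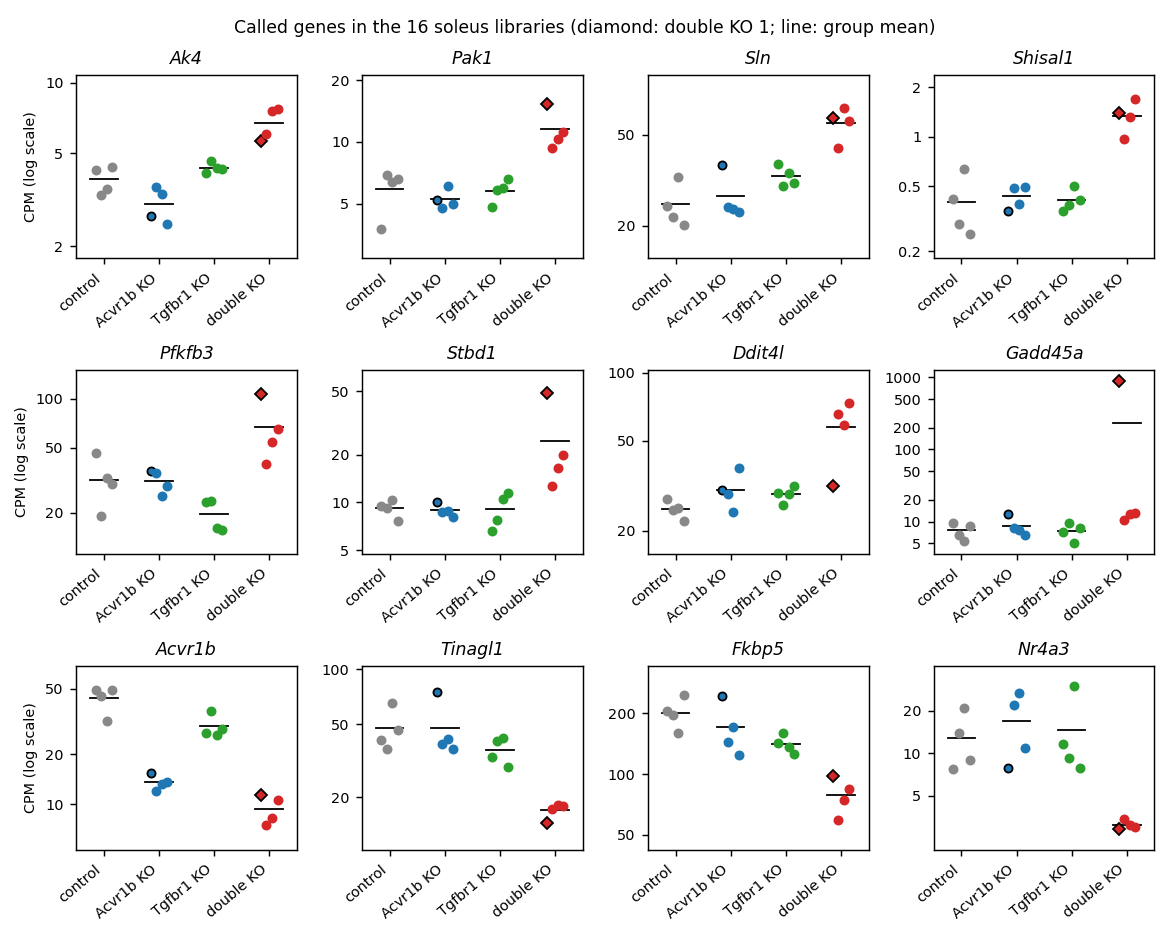
Level of 12 called genes in each of the 16 soleus libraries, in CPM on a log axis, by group, with double KO 1 as a diamond, Acvr1b KO 1 outlined in black and the group mean as a line. Ak4, Pak1, Sln, Shisal1, Pfkfb3 and Stbd1 are higher in all 4 double KO libraries than in any single KO library, Acvr1b, Tinagl1, Fkbp5 and Nr4a3 are lower, Gadd45a is high in double KO 1 alone, and Ddit4l is high in the other 3.

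In 20 of the 26 called genes the 4 double KO libraries did not overlap the 8 single KO libraries, 12 above and 8 below. Over all genes tested the share without overlap was 1.73% (0.827% above, 0.898% below). The comparisons with each single KO share the double KO libraries with the pooled one and make it up, and in each gene both had the sign of their mean. Fewer passed the test there: 8 of the 26 were also called against the Acvr1b KO and 5 against the Tgfbr1 KO.

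Ak4, a mitochondrial matrix adenylate kinase, measured 5.66, 6.04, 7.56 and 7.75 CPM in double KO 1 to 4, 2.48 to 3.57 CPM in the Acvr1b KO and 4.10 to 4.65 CPM in the Tgfbr1 KO. All 4 double KO libraries lay above all 8 single KO libraries, and the Acvr1b KO lay below the Tgfbr1 KO. The difference was 0.90 (SE 0.13, adjusted p = 0.0110), and it was called with every library left out in turn. Pfkfb3, which makes the fructose 2,6-bisphosphate that speeds glycolysis, stood at 107, 39.96, 54.4 and 65.5 CPM in the double KO against 25.3 to 35.8 CPM in the Acvr1b KO and 15.7 to 23.5 CPM in the Tgfbr1 KO. The groups did not overlap, double KO 1 was the highest, and the difference was 1.43 (SE 0.23, adjusted p = 0.0345) with it and 1.11 (adjusted p = 0.0397) without it. Fractional counts occurred for Pfkfb3 in 15 of 16 libraries.

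Stbd1, which binds glycogen and tethers it to membranes, measured 48.7, 12.7, 16.6 and 19.8 CPM in the double KO and 6.63 to 11.5 CPM in the single KOs. Again no library overlapped, but double KO 1 held far more than the rest, and the difference dropped from 1.44 (SE 0.26, adjusted p = 0.0440) to 0.86 (adjusted p = 0.0360) without it. Stbd1 was called in 3 of the 16 fits that left out a single library. Prkab2, the beta-2 regulatory subunit of AMP-activated protein kinase, lay at 168, 101, 115 and 158 CPM in the double KO and at 56.9 to 96.1 CPM in the single KOs, a difference of 0.77 (SE 0.14, adjusted p = 0.0478). Sort1, a sorting receptor that takes part in forming the storage vesicles of the glucose transporter GLUT4, measured 30.7, 23.7, 23.5 and 30.9 CPM against 12.2 to 20.6 CPM, a difference of 0.71 (SE 0.13, adjusted p = 0.0478). Without double KO 1 the adjusted p was 0.0683 for Prkab2 and 0.0661 for Sort1. Both genes were called in 1 of the 16 fits that left out a single library.

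Sln encodes sarcolipin, a small membrane peptide that binds the SERCA calcium pump of the sarcoplasmic reticulum and uncouples its ATP use from calcium transport. Its level was 59.1, 43.6, 65.3 and 57.1 CPM in the double KO, 36.8, 24.2, 23.6 and 22.96 CPM in the Acvr1b KO, and 37.3, 29.9, 33.96 and 30.9 CPM in the Tgfbr1 KO. The double KO lay above all single KO libraries, of which the Tgfbr1 KO libraries and Acvr1b KO 1 came nearest. The difference was 0.92 (SE 0.15, adjusted p = 0.0345), and 1.01 (adjusted p = 0.0114) without Acvr1b KO 1, with 1.07 towards the Acvr1b KO (adjusted p = 0.0254) and 0.77 towards the Tgfbr1 KO (adjusted p = 0.186). Ncs1, a neuronal calcium sensor protein that is also made in muscle, measured 14.2, 8.24, 8.07 and 8.34 CPM against 4.56 to 6.12 CPM in the single KOs, which do not overlap. It rose by 0.80 (adjusted p = 0.0428), and by 0.57 without double KO 1 (adjusted p = 0.0353). Ncs1 was called in 2 of the 16 fits that left out a single library.

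Pak1, a kinase that acts below Rac and Cdc42 on the actin cytoskeleton, stood at 15.3, 9.33, 10.4 and 11.2 CPM in the double KO. The single KO libraries lay between 4.74 and 6.596 CPM, and so did not reach the lowest double KO library. Its difference of 1.07 (SE 0.16, adjusted p = 0.0172) was nearly the same against the Acvr1b KO, at 1.14, and the Tgfbr1 KO, at 1.00, and was called with each library left out. Trp53bp1, a DNA double-strand break adaptor, showed a small shift with little spread. It measured 31.5, 24.02, 23.7 and 26.6 CPM against 15.6 to 20.2 CPM, a rise of 0.50 (SE 0.08, adjusted p = 0.0345).

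Ddit4l, a stress-induced inhibitor of mTOR signalling, parted double KO 1 from the other 3. It stood at 31.4 CPM in double KO 1, within the 24.1 to 37.9 CPM of the single KOs, and at 65.4, 58.9 and 73.2 CPM in double KO 2 to 4. The difference was 0.95 (SE 0.17, adjusted p = 0.0428) over all libraries and 1.15 (adjusted p = 0.000250) without double KO 1, the smallest adjusted p of that fit. Ddit4l was called in 2 of the 16 fits that left out a single library. Gadd45a, a growth arrest and DNA damage protein that also rises in denervated muscle, did the reverse. Double KO 1 held 903 CPM, while double KO 2 to 4 held 10.4, 12.8 and 13.1 CPM and the single KOs 4.96 to 12.9 CPM. Its difference of 4.85 (SE 0.91, adjusted p = 0.0494) came down to 0.58 (adjusted p = 0.385) when double KO 1 was left out, so its call rests on that library.

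The remaining genes that rose were low. Shisal1, a little-studied membrane protein gene on the chromosome of Acvr1b, measured 1.39, 0.966, 1.32 and 1.71 CPM in the double KO against 0.350 to 0.501 CPM in the single KOs. It rose by 1.66 (SE 0.21, adjusted p = 0.00851) and was called with every library left out. Cyp4f39, a fatty acid omega-hydroxylase, rose by 2.54 (adjusted p = 0.0419) from a mean of 0.388 to 2.05 CPM, with 1 double KO library overlapping the single KOs. E2f2, a cell cycle transcription factor, measured 0.987 to 2.61 CPM against 0.326 to 0.807 CPM and rose by 1.70 (adjusted p = 0.0419). BC023105, a processed pseudogene whose groups overlapped, rose by 1.90 (adjusted p = 0.0428). Its counts were fractional in 7 of 16 libraries, and it was called in 2 of the 16 fits with a library left out. Lair1, an inhibitory collagen receptor of immune cells, rose by 1.33 (adjusted p = 0.0419) to a mean of 0.696 CPM. In all, 8 of the 26 genes had a mean under 5 CPM in both double and single KOs.

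Among the genes that fell, 2 respond to glucocorticoids. Fkbp5, a co-chaperone of the glucocorticoid receptor and one of its standard target genes, measured 97.6, 59.0, 74.4 and 84.3 CPM in the double KO, 124 to 244 CPM in the Acvr1b KO and 126 to 160 CPM in the Tgfbr1 KO. No double KO library reached the lowest single KO library. The difference was -0.98 (SE 0.18, adjusted p = 0.0440), and -1.10 (adjusted p = 0.0353) without double KO 1. The controls lay higher still, at 160 to 247 CPM. Cebpd, a transcription factor of the acute-phase and glucocorticoid response, stood at 15.8, 15.99, 19.6 and 19.2 CPM against 23.8 to 38.1 CPM in the single KOs and 34.7 to 38.04 CPM in the controls. It fell by 0.66 (SE 0.12, adjusted p = 0.0478), and the adjusted p was 0.0683 without double KO 1. Acvr1b KO 1 was its highest single KO library, and without it the difference was -0.57 (adjusted p = 0.0193).

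Tinagl1, a matrix protein of basement membranes, measured 14.5, 17.2, 18.2 and 17.95 CPM in the double KO, a narrow group below the 29.1 to 74.6 CPM of the single KOs. It fell by 1.30 (SE 0.20, adjusted p = 0.0311), the call held in 12 of the 16 fits with a library left out, and the highest single KO library was Acvr1b KO 1, without which the difference was -1.15 (adjusted p = 0.0150). Ip6k3, the muscle form of inositol hexakisphosphate kinase, stood at 40.2, 42.1, 38.6 and 49.0 CPM against 53.0 to 70.9 CPM and fell by 0.58 (SE 0.10, adjusted p = 0.0428).

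Nr4a3, an orphan nuclear receptor induced by exercise and other stimuli, had a narrow double KO group. Its levels were 2.90, 3.41, 3.11 and 2.98 CPM, while the Acvr1b KO ranged from 7.90 to 26.4 CPM and the Tgfbr1 KO from 7.90 to 29.7 CPM. The groups did not overlap, and the difference was -2.34 (SE 0.43, adjusted p = 0.0478). Without double KO 1 the size was almost the same, -2.30, and the adjusted p was 0.104. Nek10, a kinase of the NIMA-related family, measured 0.268, 0.151, 0.269 and 0.651 CPM against 0.916 to 6.19 CPM and fell by 2.94 (SE 0.52, adjusted p = 0.0428), or by 2.61 (adjusted p = 0.0357) without Acvr1b KO 1. Rbp7, a retinol-binding protein known from endothelium and fat, fell by 1.23 (adjusted p = 0.0428) from a mean of 2.91 to 1.24 CPM. The endothelial markers as a list summed to 487 CPM in double KO 1 and 699.8 to 769 CPM in double KO 2 to 4. In the single KOs they summed to 1185 CPM in Acvr1b KO 1 and 699.7 to 864 CPM in the other 7, and the other libraries of both groups overlapped. The median of the list was -0.307, or -0.161 without double KO 1 and -0.189 without Acvr1b KO 1. Of the 12 markers 10 had a difference below 0, none was at 0 CPM throughout, and none was called, with 2 at an unadjusted p under 0.05 and 0 called by DESeq2. Their part in the lower Rbp7 and Tinagl1 was not tested, and fewer cells of a type cannot be told apart from less RNA per cell in whole muscle.

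**Figure D2:**
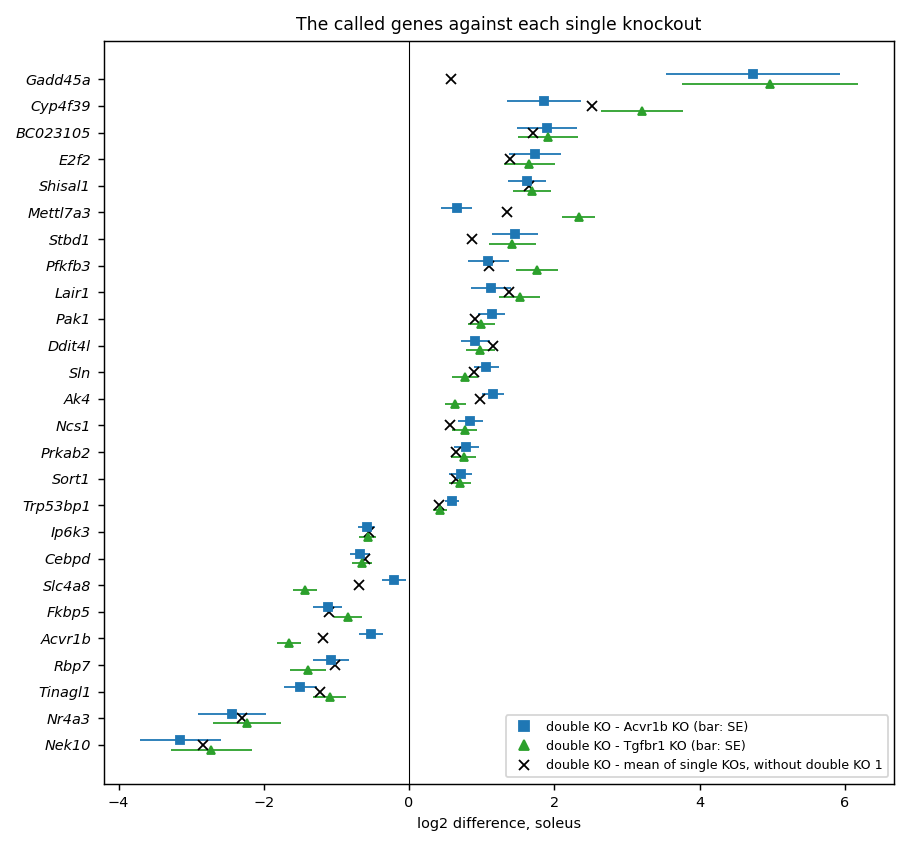
Log2 difference of the 26 called genes in soleus, double KO minus Acvr1b KO (blue squares) and double KO minus Tgfbr1 KO (green triangles), with the standard error as a bar, and the pooled difference without double KO 1 (crosses). Every gene keeps 1 side of zero in both comparisons, Mettl7a3, Cyp4f39, Slc4a8 and Acvr1b differ most between them, and the cross of Gadd45a lies at 0.58, far from its other points.

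Against each single KO alone the calls were of another kind. Against the Acvr1b KO 23 genes were called (0.127%), 7 higher (0.0386%) and 16 lower (0.0882%), and 15 of the 23 lay near a targeted gene or on an unplaced scaffold. The 8 elsewhere were Ak4, Pak1, Sln and Trp53bp1, which were higher, and Tinagl1, Fkbp5, Nek10 and Tes, which were lower. Against the Tgfbr1 KO 9 genes were called (0.0496%), 6 higher (0.0331%) and 3 lower (0.0165%). Only 3 of them lay elsewhere: Pfkfb3, Gm27177 and Gm16867. The Acvr1b KO differed from the Tgfbr1 KO in 12 genes (0.0661%), 9 higher (0.0496%) and 3 lower (0.0165%), all of them near a locus or on a scaffold, with 421 genes at an unadjusted p under 0.05 and 21 called by DESeq2. The mean of the single KOs differed from control in 5 genes (0.0276%), all lower and all near a locus, with 383 at an unadjusted p under 0.05 and 12 called by DESeq2. That count rested on single libraries: it was 17 without Acvr1b KO 1, with 10 of them elsewhere, 13 without double KO 1, with 5 elsewhere, and 44 without both, with 33 elsewhere. Between the single KOs no gene elsewhere was called in any of these 3 fits, with 8, 17 and 15 calls. Without Acvr1b KO 1 the count was 10 against the Acvr1b KO and 17 against the Tgfbr1 KO. Neither single KO was set against control on its own.

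Leaving out a library changed the count of called genes more than any scaling did. Without double KO 1 there were 52 calls (0.283%), 44 higher (0.24%) and 8 lower (0.0435%), of which 16 were among the 26. Without Acvr1b KO 1 there were 18 (0.098%), 8 higher (0.0436%) and 10 lower (0.0545%), of which 14 were among the 26. Without Acvr1b KO 2, 3 and 4 the counts were 8, 6 and 16. Without Tgfbr1 KO 1, 2, 3 and 4 they were 8, 10, 6 and 8. Without control 1, 2, 3 and 4, which enter the spread, the scaling and the choice of genes tested, they were 8, 9, 19 and 6. Without double KO 2, 3 and 4 they were 30, 14 and 15. Shisal1, Mettl7a3, Pak1, Ak4 and Acvr1b were called in all 16 of these fits, Tinagl1 in 12, and Pfkfb3 and Sln in 8. No gene of the 26 changed sign in any fit. With both double KO 1 and Acvr1b KO 1 left out, 71 genes were called (0.389%), 51 higher (0.279%) and 20 lower (0.109%), 19 of them among the 26.

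**Figure D3:**
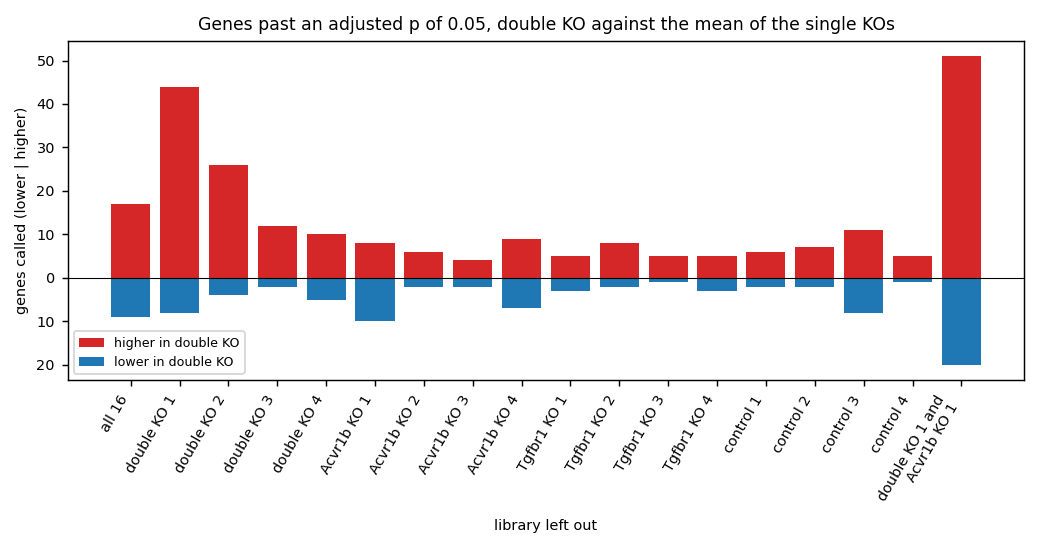
Number of genes past an adjusted p of 0.05 with all 16 libraries and with each library left out, higher in the double KO upward and lower downward. The count is 26 with all libraries, falls as low as 6, and rises to 52 without double KO 1 and 71 without double KO 1 and Acvr1b KO 1.

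Of the 52 genes called without double KO 1, 36 were not among the 26, and 32 of these were higher. In 17 of the 32, double KO 1 lay below all single KO libraries, in 9 within them and in 6 above them. Actc1, the cardiac alpha-actin that is also made in developing and growing skeletal fibres, measured 22.04 CPM in double KO 1 and 65.4, 89.2 and 153 CPM in double KO 2 to 4, against 18.1 to 34.1 CPM in the Acvr1b KO and 33.8 to 55.6 CPM in the Tgfbr1 KO. Those 3 libraries lay above all single KOs and double KO 1 did not, and counts of Actc1 were fractional in 13 of 16 libraries. The difference without double KO 1 was 1.54 (adjusted p = 0.0182), and 1.22 (adjusted p = 0.136) with it. Ky, a muscle-restricted protein needed for neuromuscular and fibre stability, had a mean of 64.1 CPM in double KO 2 to 4, 21.5 CPM in the single KOs and 9.15 CPM in double KO 1. It rose by 1.59 (adjusted p = 0.0362) without double KO 1, and the adjusted p was 0.205 with it. Hmcn2, a large matrix protein, rose by 0.75 (adjusted p = 0.0160) from 59.7 to 99.5 CPM, with 34.6 CPM in double KO 1. Mrtfa, a coactivator of serum response factor that responds to actin, rose by 0.59 (adjusted p = 0.0362) from 8.98 to 13.5 CPM, with 5.83 CPM in double KO 1. It lies on chromosome 15 within 20 Mb of Acvr1b, where the deletion and the flanking chromosome cannot be told apart. These genes were named after their values were seen.

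Ligands of the family were among the genes that differed with the choice of library. Inhba, the subunit of activin A, measured 0.732 CPM in double KO 1 and 2.69, 4.87 and 4.12 CPM in double KO 2 to 4, against 1.01 to 2.39 CPM in the single KOs. Its difference was 0.77 (adjusted p = 0.349) with all libraries and 1.11 (adjusted p = 0.0490) without double KO 1, and its counts were fractional in 15 of 16 libraries. Mstn, myostatin, stood at 3.98, 3.41, 7.50 and 14.4 CPM against 0.847 to 8.47 CPM, overlapping groups with a difference of 0.92 (adjusted p = 0.431). Of the 26 ligands and antagonists tested none was called with all libraries, with 4 at an unadjusted p under 0.05 and 1 called by DESeq2. Of the 13 receptors of the family 1 was lower, Acvr1b itself. The type II receptors Acvr2a, Acvr2b and Tgfbr2 gave differences of 0.17, 0.20 and 0.12 (adjusted p of 0.767, 0.805 and 0.781). The 20 SMADs and SMAD2/3 target genes had a median of 0.0893 beside 0.0138 over all genes, and the 13 BMP SMADs and targets one of 0.149. Without double KO 1 they were 0.0129 and 0.0937. None of either list was called by edgeR, with 3 and 4 members at an unadjusted p under 0.05 and 1 and 0 called by DESeq2.

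Myosin heavy chains define the fibre types: Myh7 the slow fibres, Myh2 the oxidative fast fibres, and Myh1 and Myh4 the faster ones. None of them was called. In controls Myh7 had a mean of 9153 CPM in soleus and 817 CPM in gastrocnemius, as the tissue labels give it. In soleus Myh7 measured 4705, 8978, 8148 and 9136 CPM in the double KO and 8683 to 11050 CPM in the single KOs, a difference of -0.27 (adjusted p = 0.485), and -0.08 without double KO 1. Myh2 measured 4815, 13050, 13370 and 14550 CPM against 10510 to 17370 CPM (-0.29, adjusted p = 0.607). Myh4 ranged from 1293 to 9164 CPM in the double KO and from 634 to 5307 CPM in the single KOs, a difference of 0.62 with a standard error of 0.55 (adjusted p = 0.675). Myh1 differed by -0.02 (adjusted p = 0.988). Counts of Myh4 and Myh1 were fractional in 16 of 16 libraries, so both share reads with other loci. Double KO 1 was by far the lowest library in Myh7 and Myh2, and double KO 3 also lay below the single KOs in Myh7.

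The slow-fibre contractile genes followed the same pattern. Of 18 tested, 1 was called, Sln, which was higher, and 16 had a difference below 0, with a median of -0.402 that came to -0.197 without double KO 1. DESeq2 called 1 higher and 1 lower. Tnni1, the slow troponin I, measured 221 CPM in double KO 1, 813, 714 and 776 CPM in double KO 2 to 4 and 743 to 1130 CPM in the single KOs. Its difference was -0.48 (adjusted p = 0.439). The fast-fibre list had a median of -0.0274, or 0.148 without double KO 1, and none of 18 called, with 3 at an unadjusted p under 0.05 and 1 called by DESeq2. Mb, myoglobin, was lower in every double KO library, at 5226 to 6839 CPM against 7633 CPM or more in the single KOs, and did not pass the test (-0.49, adjusted p = 0.0992).

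Genes that respond to the loss of the nerve set double KO 1 furthest apart. Runx1 measured 199 CPM in double KO 1 and 5.19 to 7.26 CPM in the other 3, where the single KOs held 2.04 to 7.12 CPM. In the same order, the double KO levels were 52.3 CPM and 2.48 to 2.63 CPM for Myog, and 477 CPM and 46.2 to 59.5 CPM for Hdac4. These 3 encode transcriptional regulators that are induced by denervation. None of the 3 passed the test with all libraries (adjusted p of 0.0734, 0.114 and 0.133), and their differences without double KO 1 were 0.35, -0.06 and 0.17. Chrna1, the acetylcholine receptor alpha subunit, held 111 CPM in double KO 1 and 23.9 to 26.5 CPM in the other 3, below the 31 to 41.2 CPM of the single KOs. Of the 20 denervation response genes 2 were called, Gadd45a and Sln, both higher. Over all genes tested, 0.0937% were called higher. The list's median fell from 0.601 with all libraries to 0.0439 without double KO 1. Fbxo32, the atrophy ubiquitin ligase atrogin-1, was higher in all 4 double KO libraries than in any single KO library, at 1200, 446, 423 and 564 CPM against 211 to 411 CPM, with a difference of 0.98 (adjusted p = 0.114). Its counts were fractional in 16 of 16 libraries. Sqstm1, an autophagy receptor, measured 1993 CPM in double KO 1 and 353 to 452 CPM in the other 3, where the single KOs held 367 to 467 CPM.

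Markers of Schwann cells and nerve summed to 74.8 to 585 CPM in the double KO libraries and 95.3 to 767 CPM in the single KO libraries, and none of 12 was called by edgeR or DESeq2 or had an unadjusted p under 0.05. Macrophage markers summed to 215 CPM in double KO 1 and 92.4 to 144 CPM in double KO 2 to 4, and to 46.2 CPM in Acvr1b KO 1 and 95.04 to 139 CPM in the other 7 single KO libraries. Of 13 markers 12 had a difference above 0 and none was called by edgeR, with 3 at an unadjusted p under 0.05 and 1 called by DESeq2. Their median was 0.367, and 0.109 without double KO 1, 0.222 without Acvr1b KO 1 and -0.00426 without both. The part of these cells in the differences was not tested.

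**Figure D4:**
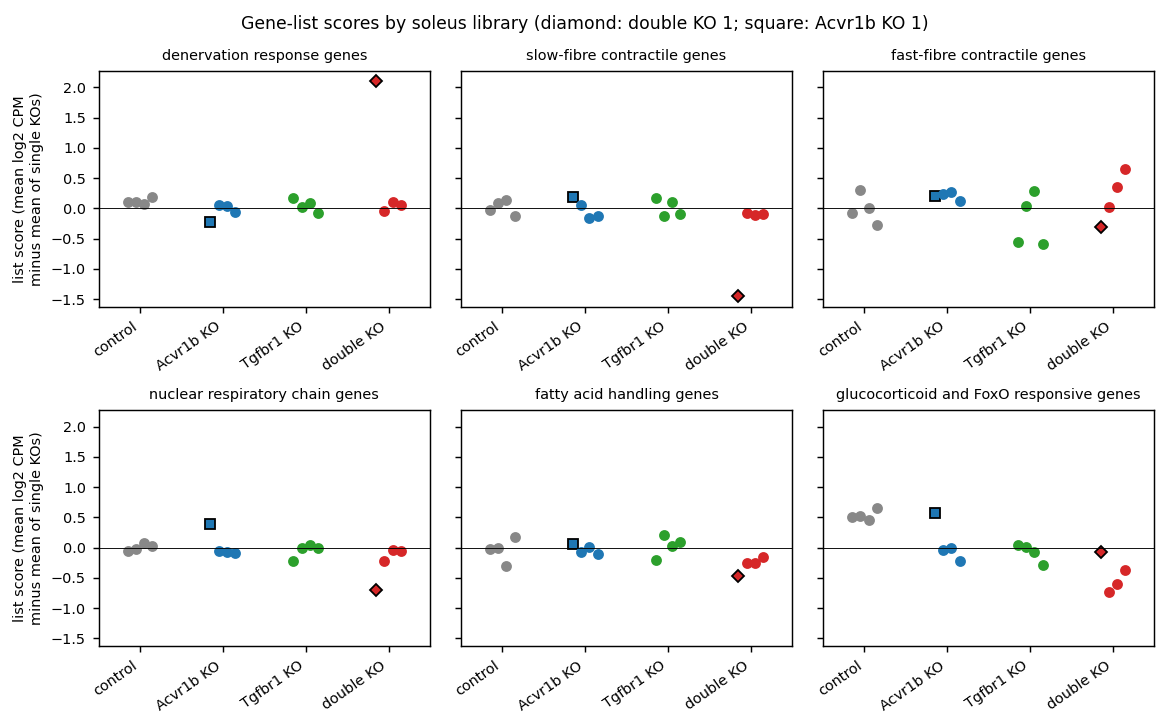
Score of 6 gene lists in each of the 16 soleus libraries, as the mean over the list of log2 CPM minus the mean of the single KOs; double KO 1 is a diamond and Acvr1b KO 1 a square. Double KO 1 lies at 2.1 for denervation response genes and at -1.45 for slow-fibre genes, apart from the other libraries, and the other 3 double KO libraries lie lowest for the glucocorticoid and FoxO responsive genes.

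No mitochondrial gene list had a member that passed the test in edgeR. The 75 nuclear genes of the respiratory chain all had a difference below 0, with a median of -0.244, and -0.109 without double KO 1, -0.171 without Acvr1b KO 1 and -0.0455 without both. None was called by edgeR or by DESeq2, and 11 had an unadjusted p under 0.05. Over all 18143 genes tested, 2337 had such a p, and 9592 had a difference above 0. By library, the list's score was -0.704 in double KO 1, -0.22, -0.0468 and -0.0551 in double KO 2 to 4, and between -0.222 and 0.0498 in 7 of the 8 single KO libraries. The eighth, Acvr1b KO 1, lay at 0.383. The double KO 2 to 4 scores lay within the range of the single KOs. The 13 mRNAs encoded by the mitochondrial genome had a median of -0.00618, or 0.0832 without double KO 1. Of 37 fatty acid handling genes 2 had a difference above 0, with a median of -0.255 that came to -0.157 without double KO 1. None of the 37 was called by edgeR, 12 had an unadjusted p under 0.05, and 2 were called lower by DESeq2. Over all 18143 genes these last counts were 2337 and 122. Their scores in the double KO were -0.464, -0.257, -0.251 and -0.16, 3 of them below all single KO libraries and the fourth below 7 of the 8. Glycolysis and glycogen genes had a median of -0.0927, or 0.0264 without double KO 1, with 1 of 41 called, Pfkfb3, which was higher. DESeq2 called 1 of the 41 higher and 2 lower.

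Of 22 glucocorticoid and FoxO responsive genes 2 were called, Fkbp5 and Cebpd, both lower, and 4 had a difference above 0. Over all 18143 genes tested, 9 were called lower by edgeR and 122 by DESeq2, and 9592 had a difference above 0. The mean score of the list lay below all single KO libraries in double KO 2 to 4. The scores were -0.735, -0.608 and -0.373 in those 3, -0.0739 in double KO 1, -0.279 to 0.576 in the single KOs and 0.465 to 0.653 in the controls. DESeq2 called 6 of the genes, all lower, and the median of the list was -0.353, or -0.596 without double KO 1 and -0.175 without Acvr1b KO 1. Foxo1, a transcription factor of the FoxO family that promotes atrophy programmes, measured 74.2, 53.6, 53.9 and 68.4 CPM in the double KO and 82.3 to 141 CPM in the single KOs. It had no overlap and a difference of -0.67 (adjusted p = 0.0780), and of -0.76 (adjusted p = 0.0495) without double KO 1. Sdc4, a heparan sulphate receptor, held 173 CPM in double KO 1 and 51.5, 54.7 and 61.9 CPM in the other 3, against 69.7 to 120 CPM in the single KOs. It differed by -0.22 (adjusted p = 0.785) with double KO 1 and by -0.83 (adjusted p = 0.0353) without it. Cdkn1a, the cell cycle inhibitor p21, held 322 CPM in double KO 1 and 49.8, 38.9 and 43.8 CPM in the other 3, where the single KOs held 69.5 to 171 CPM. It was not called either way (adjusted p of 0.981 and 0.0956). Pdk4, the pyruvate dehydrogenase kinase that favours fat over glucose, had a difference of -0.70 (adjusted p = 0.240).

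In IGF, Akt and mTOR signalling 1 of 36 genes was called, Ddit4l, which was higher, and of 26 immediate early genes 1, Nr4a3, which was lower. DESeq2 called 2 higher and 3 lower in the first list, and 2 lower in the second. Without double KO 1, edgeR called 1 higher and 1 lower in the first list and none in the second. The medians of these lists were 0.00601 and -0.192, and -0.0122 and -0.298 without double KO 1. Among the 17 atrophy ubiquitin ligases none was called by edgeR and 1 by DESeq2, with 2 at an unadjusted p under 0.05, and among 75 cytosolic ribosomal protein genes none was called by either tool, with 2 at an unadjusted p under 0.05. The acetylcholine receptor and synapse genes had a median of 0.202, or 0.124 without double KO 1, with none of 19 called by edgeR, 2 at an unadjusted p under 0.05 and 1 called by DESeq2. Developmental contractile genes had a median of 0.000952, with none of 17 called by edgeR, 6 at an unadjusted p under 0.05 and 3 called higher by DESeq2. In the lists of collagen and matrix, proteasome, autophagy, heat shock, interferon response, circadian clock, cell cycle, dystrophin complex and TCA cycle genes no member was called by edgeR, and the medians ran from -0.155 to 0.124. Without double KO 1 they ran from -0.102 to 0.152, and that of the proteasome genes went from 0.124 to -0.0424. With all libraries DESeq2 called 1 collagen and matrix gene and 1 dystrophin complex gene lower. Of the circadian clock genes it called 1 higher and 1 lower.

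The gastrocnemius of the same 16 mice gave the same contrast in a fast muscle. There 2507 of 18726 genes were called (13.4%), 1441 higher (7.7%) and 1066 lower (5.69%). All 26 genes called in soleus had the same sign there, and 24 of them were also called; the other two were Prkab2 (0.28, adjusted p = 0.116) and Nek10 (-2.05, adjusted p = 0.0720). Both muscles of a mouse share its genotype, cohort and any reaction of that animal, so the muscles are not separate replicates. Gadd45a measured 327, 75.8, 78.3 and 69.7 CPM in gastrocnemius of double KO 1 to 4 and 16.7 to 27.8 CPM in the single KOs. The mouse of double KO 1 was again the highest, but in gastrocnemius all 4 lay above the single KOs. Runx1 and Myog were likewise highest in the mouse of double KO 1, at 35.1 and 14.4 CPM, with 9.22 to 10.7 CPM and 2.30 to 2.54 CPM in the other 3. Ddit4l was higher in all 4 double KO gastrocnemius libraries, at 191 to 282 CPM against 76.2 to 124 CPM.

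The difference of the contrast between the muscles was tested over all 32 libraries and passed in 157 genes (0.838%), 53 with a higher (0.283%) and 104 with a lower (0.555%) value in soleus. With the mouse as a block there were 329 (1.76%), 119 higher (0.635%) and 210 lower (1.12%), and 145 of the 157 were called in both fits. Of these, 151 were also tested in soleus alone, and the change was larger in size in gastrocnemius in 145 and in soleus in 6. The count was 298 without the mouse of double KO 1, 71 without that of double KO 3, 72 without that of double KO 4 and 103 without that of Acvr1b KO 3.

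Of the 26 genes called in soleus, 2 also differed between the muscles, Sln and Shisal1, and both rose further in gastrocnemius. With the mouse as a block, which pairs the muscles of an animal, 4 of the 26 differed: Fkbp5 (0.64, adjusted p = 0.0278, and 0.611 without the block) and Ip6k3 (0.51, adjusted p = 0.0328, and 0.178 without it) also passed, both with the smaller fall in soleus. Scaled over all 32 libraries, Sln stood at 8.11, 28, 22.8 and 26.9 CPM in gastrocnemius of the double KO and at 0.508 to 1.56 CPM in the single KOs, so that the double KO gastrocnemius reached, in 3 of 4 mice, the range of single KO soleus, 20.9 to 34.4 CPM. The difference between muscles was -3.50 (SE 0.35, adjusted p = 3.92e-07, and 0.000216 with the mouse as a block). Chrne, the adult epsilon subunit of the acetylcholine receptor, rose in gastrocnemius to 56.4, 55.4, 52.3 and 52.3 CPM from 8.03 to 9.67 CPM. In soleus it measured 4.10, 7.07, 7.76 and 9.19 CPM in the double KO and 4.23 to 8.74 CPM in the single KOs. The groups were wide apart in 1 muscle and overlapped in the other, and the difference between muscles was -2.34 (SE 0.22, adjusted p = 1.75e-07).

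Srrm4os, Fam174b and Kif5c rose in gastrocnemius by 3.79, 3.33 and 2.98 and differed in soleus by 0.69, -0.29 and 0.35, none of them called there. Srrm4os is a non-coding antisense transcript, and Kif5c is a neuronal kinesin heavy chain. Slc2a3, the glucose transporter GLUT3, fell in gastrocnemius by 1.97, from 10.5 to 18.6 CPM in the single KOs to 3.20 to 4.16 CPM in the double KO. In soleus it measured 1.88 to 3.04 CPM in the double KO and 1.61 to 3.26 CPM in the single KOs, and these levels overlapped. Its counts were fractional in 16 of 16 soleus libraries. Slc30a2, a zinc transporter, fell in gastrocnemius by 2.30 and differed in soleus by -0.69 (adjusted p = 0.262). Stab2, a scavenger receptor, fell in gastrocnemius by 0.94. There it measured 23.3, 9.05, 10.2 and 11.4 CPM in double KO 1 to 4 and 21 to 31.3 CPM in the single KOs. The mouse of double KO 1 thus lay within the single KOs in gastrocnemius. In soleus, double KO 1 alone held 22.9 CPM, against 5.99 to 10.4 CPM in the other 3 double KO and the single KO libraries. Actc1 rose by 2.53 in gastrocnemius, and its difference between muscles did not pass the test (-1.31, adjusted p = 0.278).

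**Figure D5:**
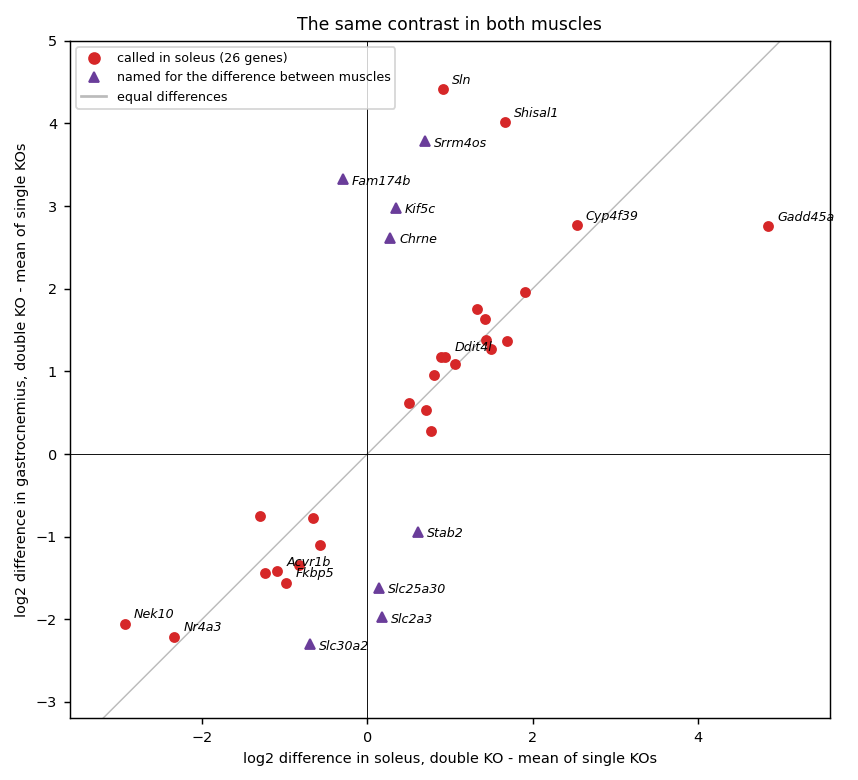
Log2 difference of double KO minus the mean of the single KOs in soleus (horizontal axis) and in gastrocnemius (vertical axis) for the 26 genes called in soleus (red) and 8 genes named for the difference between muscles (purple); the grey line marks equal differences. The red points all share their sign in both muscles, Sln and Shisal1 lie above the line, Gadd45a lies below it, and Chrne, Kif5c and Fam174b lie nearer zero in soleus than in gastrocnemius, as does Srrm4os at 0.69.

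Promoter sequences were read for the called genes, since genes that move together may share short sequences near their start. RefSeq promoters of the build GRCm38.p6, from 250 bases before the start to 50 after it, were matched by symbol for 20 of the 26. Only the first listed promoter of each gene was read, though Ak4 has 4 and E2f2, Pak1, Pfkfb3 and Tinagl1 have 2 each. Both strands were searched for an E-box, which reads CAGCTG here. The N-box searched for was CCGGAA on either strand. The TATA box was taken as TATAAA, and the last motif was the CArG box, the element that serum response factor binds. Each of the 4 motifs was found in 2 of the 20 promoters. Over all 32851 promoters, with every promoter of a gene counted, the shares were 16.3%, 14.9%, 13.6% and 1.63%. The E-box was found in Ip6k3 and Slc4a8, the N-box in Gadd45a and E2f2, and the TATA box in Ddit4l and Nek10. The 2 called genes with a CArG box were Stbd1 and Prkab2, both higher in the double KO. Stbd1 and Prkab2 are printed with Actc1, which also holds a CArG box and was higher in double KO 2 to 4. Chrne, which rose in gastrocnemius and not in soleus, is printed as well. Actc1 and Chrne are not among the 26, and Actc1 was picked after its values were seen, so it adds nothing to the count of CArG boxes. Capitals mark every motif match. Stbd1 lies at chr5:92602801-92603100 on the plus strand, Prkab2 at chr3:97657962-97658261 on the plus strand, Actc1 at chr2:114052826-114053125 on the minus strand and Chrne at chr11:70619145-70619444 on the minus strand.
Stbd1: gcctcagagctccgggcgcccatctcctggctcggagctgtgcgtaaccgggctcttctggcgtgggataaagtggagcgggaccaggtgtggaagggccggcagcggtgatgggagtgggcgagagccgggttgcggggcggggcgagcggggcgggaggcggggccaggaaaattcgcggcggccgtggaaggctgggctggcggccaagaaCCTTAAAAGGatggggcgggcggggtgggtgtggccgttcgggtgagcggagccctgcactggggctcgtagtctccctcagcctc
Prkab2: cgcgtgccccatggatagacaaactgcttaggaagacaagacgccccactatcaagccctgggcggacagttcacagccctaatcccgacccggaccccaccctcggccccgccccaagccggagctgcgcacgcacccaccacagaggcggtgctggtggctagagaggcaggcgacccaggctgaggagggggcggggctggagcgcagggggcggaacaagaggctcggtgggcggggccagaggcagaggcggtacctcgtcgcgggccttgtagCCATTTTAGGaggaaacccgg
Actc1: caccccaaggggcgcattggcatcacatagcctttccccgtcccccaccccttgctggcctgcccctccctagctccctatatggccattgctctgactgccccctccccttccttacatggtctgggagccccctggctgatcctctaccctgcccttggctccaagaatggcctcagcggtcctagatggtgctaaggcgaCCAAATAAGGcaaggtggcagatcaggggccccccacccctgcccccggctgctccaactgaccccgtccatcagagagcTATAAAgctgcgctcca
Chrne: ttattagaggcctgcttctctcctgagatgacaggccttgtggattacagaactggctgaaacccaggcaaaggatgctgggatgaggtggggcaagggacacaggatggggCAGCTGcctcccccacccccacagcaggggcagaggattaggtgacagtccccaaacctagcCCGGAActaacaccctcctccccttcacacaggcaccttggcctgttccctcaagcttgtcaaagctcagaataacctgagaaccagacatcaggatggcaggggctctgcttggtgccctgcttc
The CArG boxes of Stbd1, Prkab2 and Actc1 have different inner bases, and Actc1 has a TATA box after it. Chrne holds an E-box and an N-box, the element known from synaptic genes of muscle, and no CArG box. These matches describe the letters in the windows, and with 2 of 20 genes for each motif no comparison of shares was made.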

How the data were processed

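PolyA RNA of whole muscles was sequenced from KAPA mRNA HyperPrep libraries. Per the file headers, the authors counted reads per gene with featureCounts 2.0.1 (strand setting 2, Ensembl release 102), after trimming with cutadapt, alignment to GRCm38.p6 with HISAT2 and quality control with FastQC 0.11.9, per the submitters' processing notes. The deposited values are estimated counts, since reads that fit several places were shared as fractions: 7319 of the genes tested had fractional counts in 8 or more of the 16 soleus libraries. Genes were matched to symbols for 55227 of 55487 identifiers.

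Counts were rounded to whole numbers. edgeR 4.0.16 (R 4.3.3) kept genes by filterByExpr, scaled by TMM and fitted all 16 soleus libraries with a robust quasi-likelihood model, with 12 residual degrees of freedom and a common biological coefficient of variation of 0.218. Tests were 2-sided, with Benjamini-Hochberg adjustment over all genes. The contrast between muscles came from a fit of all 32 libraries, and gastrocnemius values are from that fit, so its CPM scale differs slightly. CPM are TMM-scaled. P-values measure the spread between mice, 4 per group. The main fit of all 32 libraries had no term for the mouse, so it treated the 2 muscles of an animal as independent. The largest correlation between 2 soleus libraries was 0.992 and no 2 were identical. On simulated counts with the real means, 85% of genes changed by 1 and 94% of those changed by 2 on the log2 scale were recovered, with 8 false calls. Changes were put only into genes of at least 1 CPM, and no simulated library stood apart. The real libraries include double KO 1, so these shares check the fit and do not give its power here.

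Soleus and gastrocnemius libraries of a mouse were paired by the animal number in the labels: over 16 mice the correlation of their deviations from the group means ran from 0.0344 to 0.579. Replicate numbers shared between genotypes name different mice.

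Named genes were the receptors, myosins, Mstn and Inhba, all called genes, the leading members of 33 pathway and 14 marker lists, and the largest differences between muscles, while Runx1, Myog, Hdac4, Chrna1, Foxo1, Sdc4, Tnni1, Mb, the type II receptors and the genes called only without double KO 1 were chosen after their values were seen. The members and lists were chosen with earlier results of these data known. Alternatives were DESeq2 1.42.0, RLE size factors, no filter, the 12 compared libraries alone, a replicate block, 1 pooled single-KO group, no genes within 20 Mb of the loci, and each library left out. Leaving out double KO 1 together with Acvr1b KO 1, or a control, was added after the data were seen. Lists were described and not tested.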

Additional observations from a re-analysis of the deposited data

Results flagged for a closer look

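Single libraries far from the other 3 of their group were looked for in 440 groups of 4, for 63 genes and 47 list scores in soleus, and 48 were found, 21 of them double KO 1 and 10 Acvr1b KO 1. Chance sets apart about 1 group in 20. Some of the 63 genes, such as Runx1, Myog and Hdac4, were chosen after their values were seen. Groups that hold the same library are also not independent, so the number found cannot be judged against that share.

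Double KO 1 lay far above the other double KO libraries for Sqstm1 (1990 CPM), Gadd45a (903 CPM), Hdac4 (477 CPM), Cdkn1a (322 CPM), Runx1 (199 CPM), Sdc4 (173 CPM), Chrna1 (111 CPM), Tgfbr1 (57.6 CPM), Myog (52.3 CPM), Ncs1 (14.2 CPM), Slc25a30 (8.3 CPM) and Gm16867 (3.42 CPM). It lay far below them for Myh2 (4810 CPM) and Tnni1 (221 CPM). Its list scores stood high for denervation response (2.1), integrated stress response and serine synthesis (0.423) and cytosolic ribosomal protein genes (0.359). They stood low for slow-fibre contractile genes (-1.45), pericyte and smooth muscle markers (-0.994), mitochondrial biogenesis regulators (-0.713) and TCA cycle and pyruvate oxidation genes (-0.595).

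Acvr1b KO 1 lay far above the other Acvr1b KO libraries for Tinagl1 (74.6 CPM), Cebpd (38.1 CPM), Sln (36.8 CPM), the nuclear respiratory chain score (0.383) and the endothelial marker score (0.354). It lay far below them in the scores of tendon markers (-2.65), fibroblast markers (-1.24), SMADs and SMAD2/3 targets (-0.612), circadian clock genes (-0.204) and IGF, Akt and mTOR genes (-0.199).

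Acvr1b KO 3 was set apart for Pdk4 (3280 CPM), Fbxo32 (298 CPM), Hdac4 (36.5 CPM), immediate early genes (score 0.429) and carnosine and polyamine genes (score 0.162), and Acvr1b KO 4 for Mrtfa (8.13 CPM) and cell cycle genes (score -0.0613). Among the Tgfbr1 KO libraries, replicate 1 was set apart for Tgfbr1 (20.6 CPM) and cell cycle genes (score -0.0697), and replicate 3 for Nr4a3 (29.7 CPM) and pericyte and smooth muscle markers (score -0.233). Replicate 4 was set apart for Runx1 (3.8 CPM) and circadian clock genes (score -0.313). Control 2 was set apart for Mrtfa (6.99 CPM). Schwann cell and nerve markers scored high in 1 library each of the Tgfbr1 KO (replicate 4, 1.56), double KO (replicate 2, 1.34) and control (replicate 3, 0.414).

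The contrast differed between soleus and gastrocnemius in 157 genes by edgeR without the mouse as a block, with negative values where the soleus value was lower. The named ones were Fam174b (-3.63), Sln (-3.50), Srrm4os (-3.09), Kif5c (-2.64), Shisal1 (-2.36), Chrne (-2.34), Slc2a3 (2.14), Slc25a30 (1.75), Slc30a2 (1.61) and Stab2 (1.53). Stab2 in soleus was high in double KO 1 alone, and in gastrocnemius that mouse lay within the range of the single KOs.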

How the results depend on the processing

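The count of 26 genes was 262 by DESeq2 (140 higher, 122 lower), 7 with only the 12 compared libraries, 8 with the replicate block, 15 without genes near the targeted loci and 71 without double KO 1 and Acvr1b KO 1. With a library left out it ran from 6 to 52. RLE size factors gave 27, no filter 33 and 1 pooled single-KO group 29. Same-numbered soleus libraries of different genotypes did not deviate together: over 24 pairs the correlation ran from -0.261 to 0.13, so the block uses up degrees of freedom without a shared animal.

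Against the Acvr1b KO the count of 23 was 152 by DESeq2, 15 with the replicate block, 1 without genes near the loci and 13 without both libraries, and it ran from 8 (without double KO 3) to 30 (without control 3). Against the Tgfbr1 KO the count of 9 was 84 by DESeq2, 0 without genes near the loci and 44 without both, and ran from 4 (without Acvr1b KO 2, among others) to 17 (without Acvr1b KO 1). Between the single KOs the count of 12 was 21 by DESeq2 and 0 without genes near the loci, and ran from 7 to 17. For the single KOs against control the count of 5 was 12 by DESeq2, 0 without genes near the loci and 44 without both, and ran from 0 (without control 1, 2 or 4) to 17 (without Acvr1b KO 1). The difference between muscles was called in 296 genes by DESeq2 and 329 with the mouse as replicate block, and in 71 to 298 with a mouse left out. The causes were not tested.

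The sign was examined for a part of the named genes, and changed for 7 of their differences. Leading list members outside that part also changed sign with a library left out. Among them were Hba-a1 (0.52, running from -0.79 to 0.80) and Trp63 (0.86, running from -0.13 to 1.13). Myh1 (-0.02) came to 0.12, 0.085, 0.075 and 0.031 without Acvr1b KO 3, double KO 3, double KO 4 and Tgfbr1 KO 2, and its lowest value with a library left out was -0.19, without double KO 1. Cdkn1a (0.062) came to -0.26 with the replicate block and ran from -1.30 (without double KO 1) to 0.35 with a library left out, and to -0.0043, -0.017 and -0.010 without Acvr1b KO 2, Acvr1b KO 4 and Tgfbr1 KO 2. Without double KO 1, and without both libraries, Myog came to -0.055 and -0.0059, Chrna1 to -0.45 and -0.46, Sqstm1 to -0.077 and -0.064, Slc25a30 (0.14) to -0.23 and -0.18, and Cdkn1a without both to -1.18. Their highest values with a library left out were 2.84 for Myog (without double KO 4), and 0.64, 1.14 and 0.26 for Chrna1, Sqstm1 and Slc25a30 (without double KO 2). Acvr2a came to -0.040 without both. Of the remaining values of named genes, 1665 kept direction and side of the threshold, 443 no longer passed it and 22 newly passed. Medians were examined only for the respiratory chain, fatty acid, slow-fibre, denervation, glucocorticoid and FoxO, and acetylcholine receptor lists. Over the alternatives, 141 of these values moved by less than the spread between libraries of a genotype and 3 by more. That spread included double KO 1, which widens it, so a median within it is not thereby shown to be stable. Genes under 5 CPM, 8 of the 26, rest on the fewest reads.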
